A study of Homo sapiens with 6 samples.

Results

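S100 proteins are small calcium-binding proteins, and 10 of their genes (S100A2, S100A4, S100A6, S100A8, S100A9, S100A10, S100A11, S100A14, S100A16 and S100P) were followed here by gene symbol among the 41768 named genes of a table of RNA levels. The table covers 6 libraries of poly(A)-selected RNA from cells of 2 lines of pancreatic ductal adenocarcinoma (PDAC), PANC-1, an established human line, and a line that the labels call 90. Each line gave 2 libraries labelled siALDOA 1 and siALDOA 2, read here as siRNA against ALDOA, the gene of the glycolytic enzyme aldolase A, and 1 library labelled NC. The labels spell out neither NC nor 90, and they leave unsaid whether the siALDOA libraries of a line used different siRNAs or the same one again. Separate cultures are not mentioned for any group, so every p-value speaks of spread among libraries that could be technical repeats. Levels are the FPKM values the authors deposited, which scale fragments to gene length and to library depth and so let genes be compared per length.

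S100 proteins carry a pair of EF-hand calcium-binding loops and mostly work as dimers. On binding calcium they expose a surface that holds partner proteins such as annexins, myosin and ezrin, and several are also released and bind the receptors RAGE and TLR4. They have no enzyme activity of their own. In pancreatic cancer, S100P, S100A2, S100A4 and S100A6 are known as transcripts that are often raised in tumour cells relative to normal duct, and S100A8 and S100A9 as products mainly of infiltrating myeloid cells.

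Of the 10 genes, 9 lie on chromosome 1 (1q21.3) between 151982915 and 153616325, a stretch of 1.63 Mb that also holds the genes of the epidermal cornified envelope, and S100P lies alone on chromosome 4 from 6693878 to 6697170 (RefSeq, GRCh38.p14). S100A8 and S100A9, S100A6 and S100A4, and S100A16 and S100A14 are close neighbours there. The 250 bases before the transcript start are printed for 5 of them, chosen because they span the results below. S100P, S100A2 and S100A14 were far lower in PANC-1, S100A4 was moderately lower, and S100A6 did not pass the test. All are written 5′ to 3′ on the strand of the gene from RefSeq (GRCh38.p14), with capitals marking matches on either strand to TGANTCA (the AP-1 motif) or to the core promoter element TATAAA.

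S100A2, chr1:153565845-153566094, minus strand: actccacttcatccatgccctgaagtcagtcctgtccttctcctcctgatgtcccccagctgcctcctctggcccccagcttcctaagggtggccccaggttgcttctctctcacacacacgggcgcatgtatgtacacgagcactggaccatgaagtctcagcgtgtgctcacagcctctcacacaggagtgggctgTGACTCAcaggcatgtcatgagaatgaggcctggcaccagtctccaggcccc

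S100P, chr4:6693628-6693877, plus strand: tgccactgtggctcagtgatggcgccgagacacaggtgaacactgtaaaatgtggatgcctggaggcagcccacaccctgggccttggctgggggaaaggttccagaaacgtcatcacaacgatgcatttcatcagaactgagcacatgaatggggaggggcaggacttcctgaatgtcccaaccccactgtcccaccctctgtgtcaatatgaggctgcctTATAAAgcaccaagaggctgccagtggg

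S100A14, chr1:153616326-153616575, minus strand: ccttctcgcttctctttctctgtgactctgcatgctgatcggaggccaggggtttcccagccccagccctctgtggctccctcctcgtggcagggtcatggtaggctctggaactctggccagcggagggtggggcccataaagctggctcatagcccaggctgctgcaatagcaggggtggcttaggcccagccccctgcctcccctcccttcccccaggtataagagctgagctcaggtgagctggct

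S100A4, chr1:153545807-153546056, minus strand: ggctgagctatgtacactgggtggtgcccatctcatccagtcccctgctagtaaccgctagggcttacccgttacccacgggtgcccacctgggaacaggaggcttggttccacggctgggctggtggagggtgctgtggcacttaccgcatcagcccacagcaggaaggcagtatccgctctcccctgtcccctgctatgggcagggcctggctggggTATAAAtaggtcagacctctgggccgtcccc

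S100A6, chr1:153535992-153536241, minus strand: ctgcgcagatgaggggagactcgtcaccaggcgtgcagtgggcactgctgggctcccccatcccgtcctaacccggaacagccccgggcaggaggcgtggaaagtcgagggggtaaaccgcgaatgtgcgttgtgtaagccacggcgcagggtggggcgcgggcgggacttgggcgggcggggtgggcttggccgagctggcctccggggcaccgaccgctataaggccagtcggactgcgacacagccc

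All 10 genes had at least 1 such window, 14 in all. TGANTCA stood in 1 of them, that of S100A2, beginning 52 bases before the start, and in 6.6% of 35116 windows of the same length over all genes. TATAAA stood in S100P at 28, in S100A9 at 29 and in S100A4 at 31 bases before the start, and in windows of S100A8, against 10.7% of all windows. The windows also differed in CpG sites, of which the median over all windows was 11. The S100A6 and S100A10 windows had 24 each and that of S100A11 had 15, and these are the 3 genes with the highest mean levels over all 6 libraries. The windows of S100P, S100A14 and S100A9 had 4 each, those of S100A2 had 4 and 3, and those of S100A16 had 6 and 1. The S100A4 window had 7, below that median, at a mean level of 423 FPKM, and the S100A8 windows had 2 each. In the 90 line alone S100A2, with 4 and 3, averaged 931 FPKM, above S100A10 at 823 FPKM. A match is a description of letters and shows neither binding nor a cause.

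The libraries themselves differ in ways that touch these genes. Depth recovered from the steps in the values of short RNA genes was 17.7 to 21.8 M fragments. ALDOA stood at 501 and 462 FPKM in siALDOA 1 and 2 against 906 in NC of PANC-1, and at 262 and 318 against 726 in the 90 line. Genes in the lowest eighth of GC content had median log2 changes from NC of -1.02 and 0.56 in siALDOA 1 and 2 of PANC-1 and of 1.4 and 0.12 in those of the 90 line. Those in the highest eighth (GC content from 61.2%) had 0.1 and -0.21 in siALDOA 1 and 2 of PANC-1 and -0.27 and 0.11 in those of the 90 line. The longest transcripts of the 10 S100 genes have 52.8% to 60.2% GC, against a median of 49.6% over tested genes. PANC-1 siALDOA 1 stands apart in another way. All 27 genes that were at 100 FPKM or more in every 90 library and under 5 FPKM on average in PANC-1 had their highest PANC-1 value in that library, at a median of 0.575% of their 90 mean, against 0.162% in siALDOA 2 and 0.119% in NC. S100P is 1 of the 27. Whether that library holds RNA or reads of the 90 line was not tested, so low PANC-1 values of such genes may not be PANC-1's own.

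The label of a PDAC line was read against epithelial markers. The keratins KRT8 and KRT18 of simple epithelium were at 1194 to 1969 FPKM in PANC-1 and at 956 to 1506 in the 90 line. KRT7, EPCAM, CDH1 and KRT19 were called lower in PANC-1, where KRT7 was at 6.24 to 11.5 FPKM, CDH1 at 1.18 to 2.05 and EPCAM at 7.51 to 17.5, whereas KRT19 was still at 652 to 845 FPKM. The 4 keratinocyte markers did not go one way. KRT5 was at 0.463 to 3.68 FPKM in PANC-1, highest in siALDOA 1, and at 618 to 791 in the 90 line. KRT14 was at 0.0296 to 0.196 FPKM in PANC-1 and at 2.06 to 4.72 in the 90 line. KRT10 was higher in PANC-1, at 14.6 to 30.3 FPKM, against 7.04 to 9.24 in the 90 line. KRT1 was listed at 0 in all PANC-1 libraries and reached 0.0214 FPKM in the 90 line.

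PANC-1 carried less S100 RNA than the 90 line, in a different mixture. The 10 genes together made up 0.581%, 0.51% and 0.591% of all FPKM in siALDOA 1, siALDOA 2 and NC of PANC-1, and 1.053%, 1.248% and 1.121% in those of the 90 line. S100A6 alone was 51.9% to 54.8% of that sum in PANC-1 and 19.7% to 22.1% in the 90 line. S100A11 was 20.5% to 21.4% of it in PANC-1 and 25.4% to 27.3% in the 90 line. In bulk RNA, fewer cells expressing a gene and less RNA per cell cannot be told apart.

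**Figure D1:**
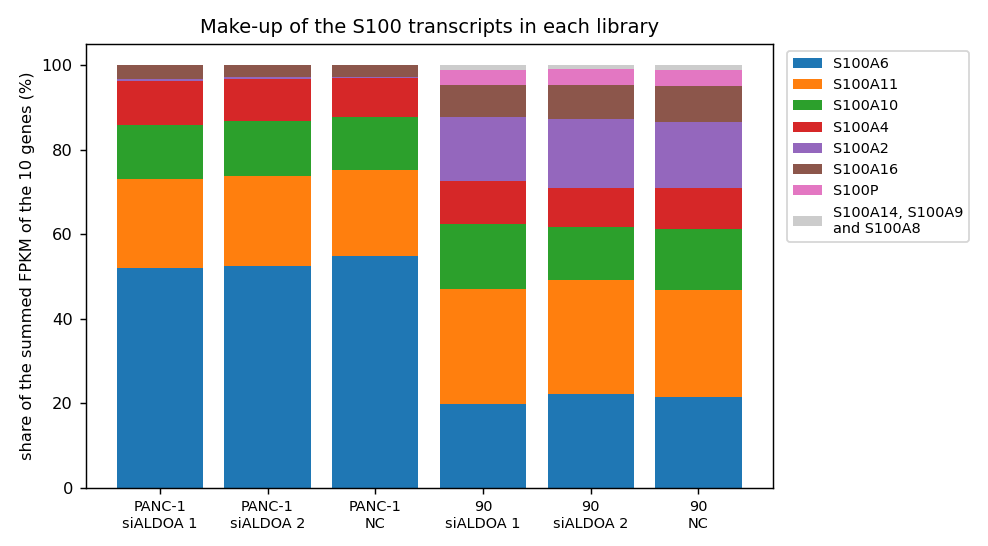
Share of each gene in the summed FPKM of the 10 S100 genes (percent), for the 3 PANC-1 libraries on the left and the 3 libraries of the 90 line on the right. S100A6 takes over 50% of every PANC-1 bar, whereas S100A2 and S100P are visible in the 90 bars.

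Ordered by mean level, PANC-1 had S100A6, S100A11, S100A10, S100A4, S100A16 and S100A2, followed far below by S100P, S100A14, S100A9 and S100A8. The 90 line had S100A11, S100A6, S100A2, S100A10, S100A4, S100A16, S100P, S100A14, S100A9 and S100A8. In PANC-1 the ranges over libraries of S100A10 and S100A4 overlapped, and S100A9 and S100A8 were both at or near 0. In the 90 line the ranges of S100A11 and S100A6, of S100A6 and S100A2, of S100A2 and S100A10 and of S100A4 and S100A16 overlapped, and S100A2 was below S100A10 in siALDOA 1 and above it in the other libraries. S100A6 in PANC-1 ranked 28 to 39 among all genes, and S100A11 in the 90 line ranked 38 to 50.

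**Figure D2:**
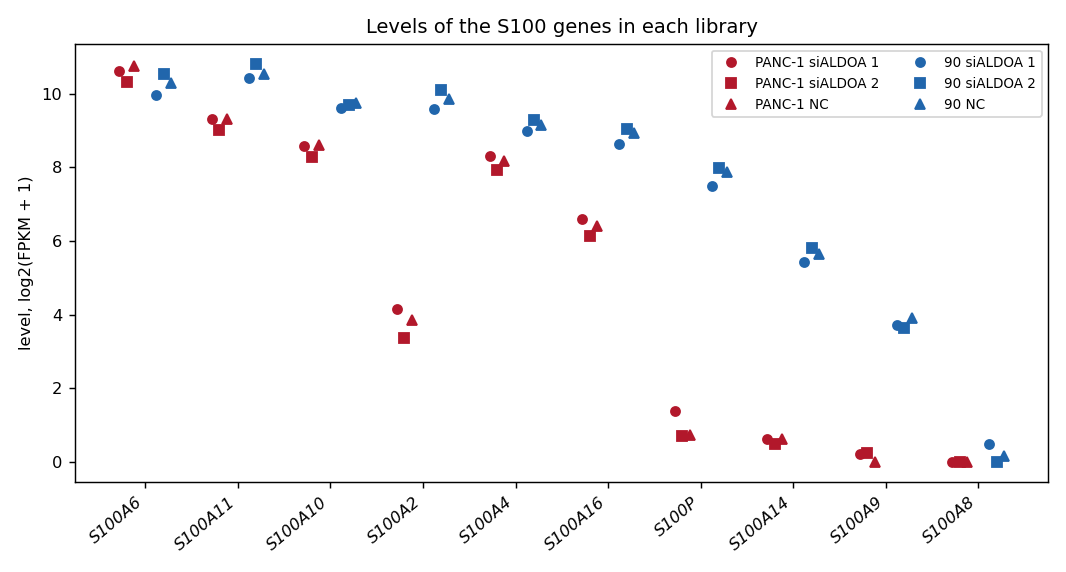
Level of each S100 gene as log2(FPKM + 1) in each library, PANC-1 in red and the 90 line in blue, with siALDOA 1 as circles, siALDOA 2 as squares and NC as triangles. The red and blue points of S100A6 overlap, and those of S100A2, S100P and S100A14 lie far apart.

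The comparison of PANC-1 with the 90 line uses all 3 libraries of each line, because the NC libraries alone are 1 against 1. The test was limma's on log2(FPKM + 1) for the 12591 genes whose mean reached 1 FPKM, and called means that the p adjusted after Benjamini and Hochberg was below 0.05. Of the 10 S100 genes, 9 passed this filter and S100A8 did not. S100P, S100A14 and S100A9 passed only through their levels in the 90 line, so their difference is tied to the filter. The other 6 averaged at least 1 FPKM in both lines, and 5 of them were called lower in PANC-1 and 0 higher. Over all tested genes 38.7% were called, 18.4% lower and 20.4% higher, and over the 10793 genes that averaged at least 1 FPKM in both lines 14.1% were called lower and 18.7% higher. The median log2 difference was -1.28 over these 6 genes and 0.15 over those 10793. The values of the lines did not overlap, with PANC-1 lower, for S100A2, S100A4, S100A10, S100A11 and S100A16. The same held for the 3 genes tied to the filter, whereas S100A6 and the untested S100A8 overlapped. Over all tested genes the share without overlap in that direction was 25.1%. It was not computed for the genes that averaged at least 1 FPKM in both lines.

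S100A2, a mainly nuclear family member, was high in the 90 line and low in PANC-1. It stood at 16.9, 9.37 and 13.4 FPKM in siALDOA 1, siALDOA 2 and NC of PANC-1, and at 772, 1095 and 926 FPKM in those of the 90 line. The lowest 90 library was far above the highest PANC-1 library. The mean was 13.2 ± 3.78 FPKM in PANC-1 and 931 ± 161 in the 90 line (SD, n = 3 each), which puts PANC-1 at 1.42% of the 90 level (log2 difference -6.05, SE 0.26, adjusted p = 2.06e-04 by limma). Without PANC-1 siALDOA 1 the difference was -6.27.

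S100P, first found in placenta and a partner of ezrin and ligand of RAGE, reached 1.62 FPKM at most in PANC-1. It stood at 1.62, 0.628 and 0.665 FPKM in siALDOA 1, siALDOA 2 and NC of PANC-1, and at 179.5, 252 and 235 FPKM in those of the 90 line. The PANC-1 siALDOA 1 value was 0.728% of the 90 mean, against 0.283% in siALDOA 2 and 0.3% in NC, and that library is the one with the highest PANC-1 value of all 27 genes high in the 90 line; the part this plays in the value was not tested. The log2 difference was -6.84 (SE 0.264), -7.08 without that library and -7.80 with a pseudocount of 0.1 in place of 1. S100P passed the filter only through the 90 line, so its difference is tied to the filter and no p-value is given. It was the largest difference of the 9 tested S100 genes as deposited.

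S100A14 and S100A16 are neighbouring genes of epithelia whose proteins bind each other, and both were lower in PANC-1 by different amounts. S100A14 stood at 0.539, 0.387 and 0.527 FPKM in siALDOA 1, siALDOA 2 and NC of PANC-1, and at 41.9, 55.1 and 48.8 FPKM in those of the 90 line. Its log2 difference was -5.06 (SE 0.178), and -6.38 with a pseudocount of 0.1. S100A14 passed the filter only through the 90 line, so its difference is tied to the filter and no p-value is given. S100A16 stood at 95.1, 68.8 and 84.5 FPKM in siALDOA 1, siALDOA 2 and NC of PANC-1, and at 395, 526 and 489 FPKM in those of the 90 line (log2 difference -2.49, SE 0.186, adjusted p = 6.94e-04 by limma). S100A16 thus stayed well expressed in PANC-1 where S100A14 was at 0.539 FPKM or below. The ratio of S100A14 to S100A16 was 0.006 in each PANC-1 library and 0.1 to 0.106 in the 90 line. Through S100A14 this ratio is tied to the filter as well, so no p-value is given for it.

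S100A9 and S100A8 form calprotectin, the secreted heterodimer that is abundant in neutrophils and monocytes and that binds TLR4 and RAGE. S100A9 stood at 0.159, 0.185 and 0 FPKM in siALDOA 1, siALDOA 2 and NC of PANC-1, and at 12.3, 11.4 and 14.04 FPKM in those of the 90 line. At a transcript of 577 bases the PANC-1 values come to 2, 2 and 0 fragments, and the 90 values to about 138, 125 and 143. The log2 difference was -3.60 (SE 0.186), which is understated by the pseudocount and was -6.02 with a pseudocount of 0.1. S100A9 passed the filter only through the 90 line, so its difference is tied to the filter and no p-value is given. S100A8 was listed at 0 in all 3 PANC-1 libraries, where 3 fragments would be 0.263 to 0.306 FPKM. In the 90 line it stood at 0.392, 0 and 0.108 FPKM in siALDOA 1, siALDOA 2 and NC, which at a transcript of 523 bases is 4, 0 and 1 fragments. The 90 line thus carried S100A9 RNA with hardly any of its partner. These fragment counts come from depths recovered from the values and cover counting error only. The 2 transcript lengths were picked for giving whole fragments, so whole numbers are no check of the counts. The S100A9 values of the 90 line came to 137.55, 124.59 and 143.49 before rounding, in siALDOA 1, siALDOA 2 and NC.

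Markers of myeloid cells other than CD68 stayed at 0.722 FPKM or below in both lines. Of the 11 on the list, FCN1 and TYROBP were listed at 0 in all 6 libraries, and PTPRC, the pan-leukocyte gene, was at 0.0169 FPKM at most. Their summed level was 125 to 163 FPKM in PANC-1 and 31.4 to 51.8 in the 90 line, nearly all of it CD68, a lysosomal gene, which passed as higher in PANC-1 by 1.90 on the log2 scale (SE 0.235, adjusted p = 3.18e-03 by limma). The lists for fibroblasts, endothelium and melanocytes or glia summed to 15.8, 0.04 and 4.15 FPKM at most in PANC-1 and to 8.44, 3.83 and 2.65 FPKM at most in the 90 line.

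S100A10, S100A11 and S100A4 were abundant in both lines and stood at 38.4% to 49.8% of the 90 level in PANC-1. S100A10, also named p11, is the family member that holds annexin A2 without needing calcium. It stood at 385, 313 and 392 FPKM in siALDOA 1, siALDOA 2 and NC of PANC-1, and at 784, 829 and 857 FPKM in those of the 90 line (log2 difference -1.18, SE 0.126, adjusted p = 1.96e-03 by limma). S100A11, a partner of annexin A1, stood at 640.1, 518 and 640.3 FPKM in siALDOA 1, siALDOA 2 and NC of PANC-1, and at 1391, 1800 and 1496 FPKM in those of the 90 line (log2 difference -1.38, SE 0.166, adjusted p = 2.91e-03 by limma). Its 5 pseudogene rows were at 0.474 FPKM at most. The 90 libraries all lay above the PANC-1 libraries for both genes.

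S100A4, known as metastasin and a regulator of non-muscle myosin, followed the same direction with the smallest called difference. It stood at 315, 242 and 286 FPKM in siALDOA 1, siALDOA 2 and NC of PANC-1, and at 508, 621 and 564 FPKM in those of the 90 line. The level in PANC-1 was 49.8% of that in the 90 line (log2 difference -1.01, SE 0.155, adjusted p = 6.51e-03 by limma). It lost the call without NC of PANC-1 (-1.02, adjusted p = 0.0564 by limma) and without NC of the 90 line (-1.02, adjusted p = 0.0573 by limma). Its RefSeq span overlaps that of S100A5 on the same strand, which was at 0.202 to 0.565 FPKM over the 6 libraries.

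S100A6, or calcyclin, was the exception to the lower levels in PANC-1. It stood at 1569, 1274 and 1714 FPKM in siALDOA 1, siALDOA 2 and NC of PANC-1, and at 1004, 1475 and 1259 FPKM in those of the 90 line, so that the lines overlapped. The log2 difference was 0.29, with a 95% interval from -0.22 to 0.80 (SE 0.198, adjusted p = 0.317 by limma). After quantile normalization it was 0.53 and called higher in PANC-1 (adjusted p = 2.91e-03 by limma). Within libraries, where a single scaling factor per library cancels but quantile or GC adjustment does not, S100A6 was at 2.45, 2.46 and 2.68 times S100A11 in siALDOA 1, siALDOA 2 and NC of PANC-1, and at 0.722, 0.82 and 0.842 times in those of the 90 line. An exact two-sided permutation test of the log2 of this ratio gave p = 0.1, the smallest possible with 3 libraries against 3 (adjusted over 7 ratios, 0.117).

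**Figure D3:**
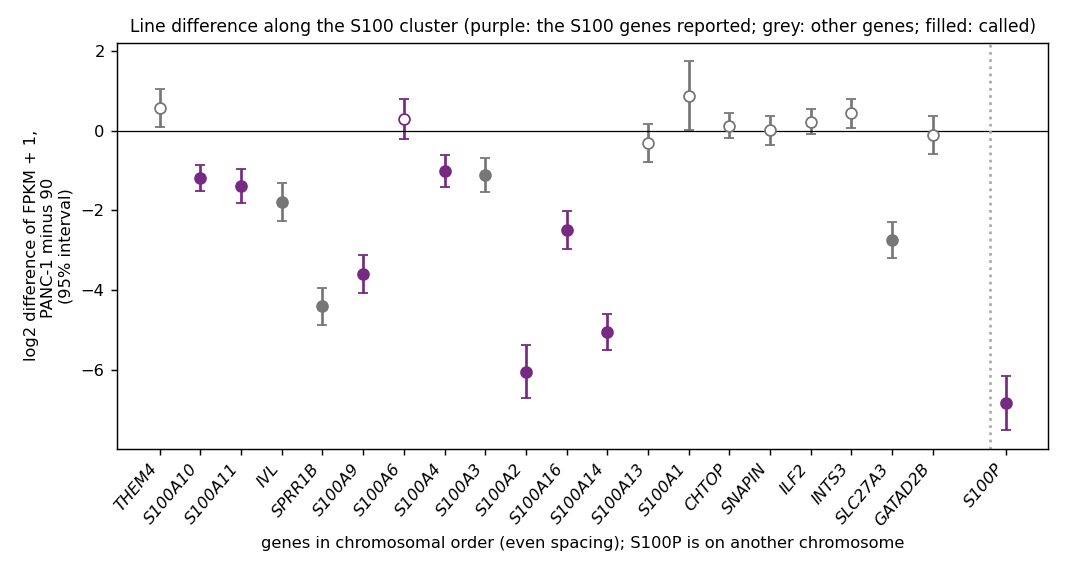
Log2 difference of FPKM + 1 between PANC-1 and the 90 line with its 95% interval from limma, for tested genes of the S100 cluster in chromosomal order and for S100P on another chromosome. Purple points are the S100 genes reported and grey points other genes, filled where called. S100A9, S100A14, S100P, SPRR1B and IVL passed the filter only through the 90 line, so their filled points are tied to the filter. S100A6 at 0.29 is open beside the called S100A4, and S100A2 at -6.05 and S100A14 at -5.06 lie lowest within the cluster.

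Along the chromosome the differences changed from gene to gene. S100A3, a neighbour of S100A2 and S100A4 best known from hair follicles, stood at 20.5, 15.5 and 16.7 FPKM in siALDOA 1, siALDOA 2 and NC of PANC-1, and at 37.3, 44.1 and 35.5 in those of the 90 line (log2 difference -1.11, SE 0.163, adjusted p = 5.52e-03 by limma). S100A13, which takes part in the release of FGF1, did not pass (-0.31, SE 0.186, adjusted p = 0.256 by limma). S100A1, a calcium sensor of muscle, was at 2.88 to 4.62 FPKM in PANC-1 and at 0.777 to 2.65 in the 90 line and did not pass either (0.88, SE 0.34, adjusted p = 0.102 by limma). S100A1 lies within S100A13 on the opposite strand, and strand use is not stated, so reads of the pair cannot be told apart. Of the 10 other S100 genes, these 3 were tested, S100A7, S100A12, S100B and S100G were listed at 0 in all 6 libraries, and S100A5, S100A7A and S100Z stayed at 0.565 FPKM or below.

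Among 30 other genes of the cluster and its flanks, 29 were in the table, 9 were tested, 3 were called lower in PANC-1 and 0 higher, with a median log2 difference of 0.02 against 0.13 over all tested genes. Of the 7 that averaged at least 1 FPKM in both lines 1 was called lower, where 14.1% of all such genes were. SPRR1B and IVL, which encode parts of the cornified envelope, passed the filter only through the 90 line. SPRR1B stood at 0.074, 0 and 0 FPKM in siALDOA 1, siALDOA 2 and NC of PANC-1, and at 18.8, 23.9 and 20.1 in those of the 90 line. IVL was listed at 0 in all 3 PANC-1 libraries and at 2.40, 1.87 and 3.24 FPKM in siALDOA 1, siALDOA 2 and NC of the 90 line. SLC27A3, an acyl-CoA synthetase gene of the distal flank, was at 1.84 to 2.43 FPKM in PANC-1 and at 17.8 to 21.8 in the 90 line (log2 difference -2.73, SE 0.176, adjusted p = 4.63e-04 by limma). The flanking genes CHTOP, SNAPIN, ILF2, INTS3 and GATAD2B, and THEM4 at the other end, did not pass.

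Partners, receptors and targets of S100 proteins formed a list of 28 genes, of which 23 were tested, 9 were called lower and 1 higher in PANC-1, and the median log2 difference was -0.65 against 0.13 over all tested genes. Of the 19 that averaged at least 1 FPKM in both lines 5 were called lower and 1 higher, where 14.1% and 18.7% of all such genes were. ANXA2, the annexin that forms a tetramer with S100A10, stood at 1340, 1237 and 1397 FPKM in siALDOA 1, siALDOA 2 and NC of PANC-1, and at 2491, 2795 and 2913 in those of the 90 line (log2 difference -1.04, SE 0.117, adjusted p = 2.31e-03 by limma). It has near-identical pseudogenes, whose rows reached 203 FPKM, so its values are uncertain. The ratio of S100A10 to ANXA2 stayed within a narrow range, at 0.287, 0.253 and 0.28 in siALDOA 1, siALDOA 2 and NC of PANC-1 and at 0.315, 0.297 and 0.294 in those of the 90 line. The mean ratio was 0.274 ± 0.018 in PANC-1 and 0.302 ± 0.011 in the 90 line (SD, n = 3 each), and the exact permutation p was 0.1, the smallest possible (adjusted over 7 ratios, 0.117).

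ANXA1 varied within lines far more than S100A11 did. It stood at 11.8, 65.05 and 61.1 FPKM in siALDOA 1, siALDOA 2 and NC of PANC-1, and at 173, 83.04 and 30.8 in those of the 90 line, so the lines overlapped (log2 difference -1.05, SE 0.928, adjusted p = 0.444 by limma). The ratio of S100A11 to ANXA1 ran from 7.97 to 54.3 in PANC-1 and from 8.02 to 48.5 in the 90 line (exact two-sided permutation p = 0.9, adjusted 0.9). The longest transcript of ANXA1 has 39.3% GC, within the lowest eighth (up to 39.6%), and ANXA1 was lowest in PANC-1 siALDOA 1 and highest in siALDOA 1 of the 90 line, the libraries where that eighth lay lowest and highest. The part of GC content in these values was not tested for ANXA1 alone.

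**Figure D4:**
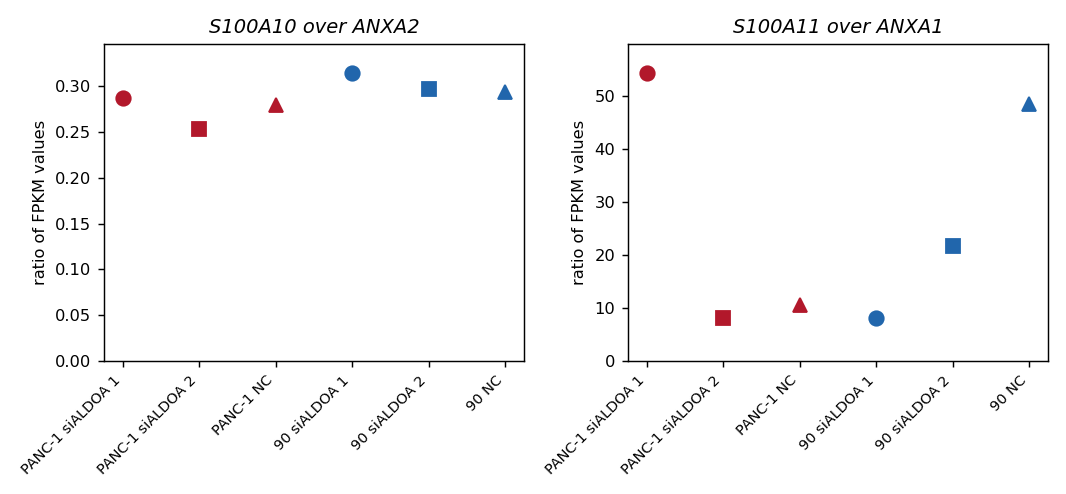
Ratio of FPKM values of S100A10 to ANXA2 (left) and of S100A11 to ANXA1 (right) in each library, PANC-1 in red and the 90 line in blue. The first ratio stays between 0.253 and 0.315, and the second spans 7.97 to 54.3.

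Other called partners were mostly lower in PANC-1. PLAT, the tissue plasminogen activator that binds the S100A10 complex, stood at 0.173, 0.0336 and 0.275 FPKM in siALDOA 1, siALDOA 2 and NC of PANC-1, and at 8.37, 11.2 and 10.9 in those of the 90 line (log2 difference -3.26, SE 0.191). TP63, the squamous transcription factor, was at 0.0323 to 0.102 FPKM in PANC-1 and at 4.06 to 10.4 in the 90 line. DLC1, a GTPase-activating protein, was at 0.245 to 0.421 FPKM in PANC-1 and at 2.33 to 4.64 in the 90 line. These 3 genes passed the filter only through the 90 line. MYH10, or non-muscle myosin IIB, was the 1 partner called higher in PANC-1, at 2.94, 8.32 and 3.92 FPKM in siALDOA 1, siALDOA 2 and NC against 1.68, 0.458 and 1.05 in those of the 90 line (log2 difference 1.50, SE 0.429, adjusted p = 0.0459 by limma). EZR and MYH9, which encode the S100P partner ezrin and the S100A4 partner non-muscle myosin IIA, and the phosphatase gene PPP5C were also called lower. The ratio of S100P to EZR was 0.003 to 0.008 in PANC-1 and 0.607 to 0.762 in the 90 line, and that of S100A4 to MYH9 was 1.77 to 2.12 in PANC-1 and 2.27 to 2.57 in the 90 line. The ratio of S100A6 to S100A4 was 4.98 to 6.004 in PANC-1 and 1.98 to 2.38 in the 90 line. S100P passed the filter only through the 90 line, so its ratio to EZR is tied to the filter and no p-value is given for it. The ratios of S100A4 to MYH9 and of S100A6 to S100A4 each had an exact two-sided permutation p of 0.1, the smallest possible (adjusted over 7 ratios, 0.117). The receptor gene AGER, which encodes RAGE, was at 0.152 to 0.247 FPKM in PANC-1 and at 0.437 to 0.754 in the 90 line, and TLR4 was at 0.0079 to 0.0369 in PANC-1 and at 0.273 to 1.60 in the 90 line, both below the filter.

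The siALDOA comparison asks whether the partial drop of ALDOA RNA went with changes of S100 genes. No S100 gene was called over both lines (0 of 9 tested, 0 at an unadjusted p under 0.05, lowest unadjusted p = 0.373 by limma), and over all 12591 genes 0% were called and 0.342% had an unadjusted p under 0.05. ALDOA itself was among the genes not called, though it was below NC in every siALDOA library. The lack of a call thus does not show that an S100 gene was unchanged. Log2 changes ran from -0.16 for S100A6 to 0.08 for S100P, with a median of -0.042 over the 9 and 0.011 over all tested genes. The 95% intervals reached from -0.76 (S100A2) to 0.80 (S100P). For S100A10, the gene with the narrowest interval, the change was -0.13 with an interval from -0.47 to 0.21, so a change of 2-fold in S100A10 lies outside it. Within PANC-1 the 9 log2 changes ran from -0.28 to 0.31 and within the 90 line from -0.23 to 0.08, with 0 called in either line. Among all tested genes 0% passed in either, and unadjusted values below 0.05 came to 0.167% in PANC-1 and 0.262% in the 90 line. The differences between the effects, PANC-1 minus 90, ran from -0.23 to 0.46 with 0 called (lowest unadjusted p = 0.355 by limma, for S100A9), beside 0% of all tested genes and 0.191% with an unadjusted p below 0.05.

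**Figure D5:**
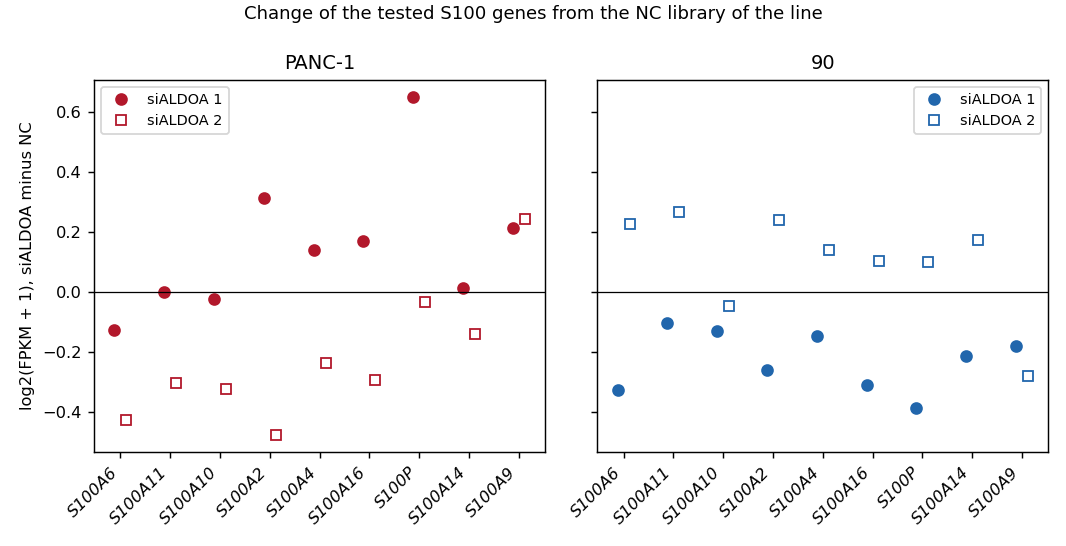
Change of log2(FPKM + 1) from the NC library of the same line for the 9 tested S100 genes, PANC-1 on the left and the 90 line on the right, with siALDOA 1 as filled circles and siALDOA 2 as open squares. The siALDOA libraries of each line mostly lie on opposite sides of 0, siALDOA 2 being the lower in PANC-1 and siALDOA 1 the lower in the 90 line.

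The 2 siALDOA libraries of a line did not move the S100 genes the same way. In siALDOA 2 of PANC-1, 8 of the 9 tested genes were below NC, and in siALDOA 1 of that line 3 were. In the 90 line 9 of 9 were below NC in siALDOA 1 and 2 were in siALDOA 2. The share of all tested genes below NC in a single library was not computed, so these counts have nothing to be set against. Relative to NC, the 6 genes expressed in both lines had a median log2 change of 0.07 in siALDOA 1 and -0.31 in siALDOA 2 of PANC-1, and of -0.21 and 0.18 in those of the 90 line. Over all tested genes the medians were 0.019 and 0.029 in siALDOA 1 and 2 of PANC-1, and -0.022 and 0.0018 in those of the 90 line. The libraries in which the 6 genes lay lowest, siALDOA 2 of PANC-1 and siALDOA 1 of the 90 line, are those in which genes of the highest eighth of GC content were lowest too, and its part in the change was not tested. Below NC in both of these libraries were 8 of the 9 genes and 38.2% of all tested genes. The pair was picked by the values of the S100 genes, so the 8 of 9 follows from that choice and is no support. S100A10 was the 1 gene below NC in all 4 siALDOA libraries, at 98.3% and 79.9% of NC in siALDOA 1 and 2 of PANC-1 and at 91.4% and 96.8% in those of the 90 line, as were 5.82% of tested genes.

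S100A6 was at 91.5% and 74.3% of NC in siALDOA 1 and 2 of PANC-1 and at 79.8% and 117% in those of the 90 line. S100A9 went opposite ways in the lines, above NC in both siALDOA libraries of PANC-1, on 2 fragments each, and at 87.4% and 81.1% of NC in siALDOA 1 and 2 of the 90 line. The difference between these effects was 0.46 on the log2 scale and did not pass the test (SE 0.441, adjusted p = 1 by limma). S100P was at 243% and 94.4% of NC in siALDOA 1 and 2 of PANC-1 and at 76.4% and 107% in those of the 90 line, the first of these in the library with the highest PANC-1 value of all 27 genes high in the 90 line.

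The likeness of patterns was measured by the root mean square difference of log2(FPKM + 1) over the 6 libraries, each gene centred on its mean. S100P was most like RAC2 (0.057) among all tested genes, and GPX2 was also near it (0.069). RAC2, a small GTPase whose highest PANC-1 value was also in siALDOA 1, stood at 3.27, 1.48 and 1.48 FPKM in siALDOA 1, siALDOA 2 and NC of PANC-1, and at 272, 377 and 337 in those of the 90 line. S100A6 was most like ADRM1 (0.038), CUTA (0.038) and ECE2 (0.045), of which ADRM1, a ubiquitin receptor of the proteasome, stood at 270.4, 212 and 276 FPKM in PANC-1 and at 165, 234 and 206 in the 90 line in the same library order. Among the S100 genes the nearest pairs were S100A4 and S100A10 (0.12) and S100A11 and S100A10 (0.14), and the nearest to S100A6 was S100A4, at 0.659. With 6 libraries from 2 lines, such likeness rests mainly on the line difference and describes these libraries only.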

How the data were processed

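Poly(A)-selected RNA of 2 PDAC lines was sequenced, per the labels' protocols. The authors deposited FPKM values per gene and library, which per the submitters' processing notes came from HISAT2, featureCounts and the hg38 build. Versions, options, strandedness and the gene lengths used were not given in the sources used here. FPKM is not a count, so no count test was run. Depth, 17.7 to 21.8 M fragments, was read from short RNA genes, whose value times RefSeq length fell on whole multiples (up to 8, tolerance 0.03 of a step) for 96.1% to 97.1% of values.

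Of 41769 rows, 1 had no gene name and was left out. Values were tested as log2(FPKM + 1), a pseudocount of 1 that understates fold changes of low genes, for genes whose mean reached 1 FPKM, with limma 3.58.1 (R 4.3.3) and an intensity trend. The line and siALDOA effects came from 1 fit with both terms (3 residual degrees of freedom), and within-line effects from group means (2 residual degrees of freedom), which lends the single NC library the spread of the siALDOA pair. P-values were adjusted by Benjamini-Hochberg over all 12591 genes. GC content, available for 90.6% of tested genes, was taken from each gene's longest transcript in GENCODE v29. Alternatives were other pseudocounts, filters and scalings, a replicate block and leaving out each library.

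The members, gene lists and tests were chosen with earlier results of these data known. Named are all 10 S100 genes, up to 6 called genes with the largest line difference of each list, and ANXA2, ANXA1 and AGER; others named are list members given as values. A few genes that this rule takes are not reported here.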

Additional observations from a re-analysis of the deposited data

How the results depend on the processing

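Of the 6 S100 genes expressed in both lines, 5 were called between the lines as reported, 4 or 5 without any 1 library and 5 or 6 under the other alternatives. The other 3 were called throughout, but they passed the filter as reported only through the 90 line, so these calls are not counted as support. The siALDOA comparisons called 0 under every alternative run. Without the NC library of a line, that line has no siALDOA effect and the lines' effects cannot be compared. S100A4 lost its call without either NC library, and S100A6 gained one after quantile normalization. Over all genes, 4879 were called between the lines, but 2357 without NC of the 90 line and 2419 without NC of PANC-1. Without a filter 49 genes were called within PANC-1 and 38 within the 90 line, against 0, and without both siALDOA 1 libraries, chosen after seeing the data, 16 over both lines, against 0; no S100 gene was among them. Scaling by the median ratio moved the median line difference of all genes to 0.0161 from 0.1346, less than any called S100 difference.

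The siALDOA changes of S100 genes, none past the test, changed sign in 28 of 144 cases, and the cause was not tested. S100A9, at -0.001 as reported, stood at 0.6 and 0.09 with pseudocounts of 0.1 and 0.5, at 0.0025 after median-ratio scaling, at 0.12 as TPM and at 0.04 after the GC correction. After quantile normalization S100A4 and S100A11 stood at 0.1 and S100A14 at 0.05. As TPM S100A2, S100A4 and S100A11 stood at 0.02, 0.04 and 0.03, and after the GC correction S100A4 at 0.01. Without both siALDOA 1 libraries S100A14 stood at 0.02. Leaving out 1 library gave -0.21 to 0.13 for S100A2, -0.1 to 0.06 for S100A4, -0.23 to 0.23 for S100A9, -0.15 to 0.08 for S100A11, -0.13 to 0.04 for S100A14, -0.18 to 0.01 for S100A16 and -0.14 to 0.31 for S100P.

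With the library name as a replicate block the line comparison called 5 of the 6 S100 genes expressed in both lines, as without it. It called 3257 of all 12591 tested genes. The 3 S100 genes tied to the filter were called too and are not counted as support. The names share only a number: deviations from the line means correlated at -0.386 for NC, -0.866 for siALDOA 1 and -0.732 for siALDOA 2, so no library was closest to its namesake. Depth limits S100A8 and S100A9 in PANC-1, which rest on 0 to 2 fragments a library.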
